A study of Mus musculus with 4 samples.

Results

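Genes of MHC class II presentation were compared in tumour-bearing eyes of splenectomized and intact mice. The members were 9 named genes, each taken through every probe set that the array annotation ties to that symbol alone. Of these genes 8 had such a probe set, 16 probe sets in all, out of 18193 named genes and 45101 probe sets on the array. H2-DMb1 had none of its own, and the 2 probe sets annotated to both H2-DMb1 and H2-DMb2 are given apart and not counted.

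The splenectomized group was C57BL/6 mice whose spleen had been removed, with 2 arrays of RNA from the whole eye with its tumour. The intact group was unoperated C57BL/6 mice, also with 2 arrays, so the groups differ in the operation as well as in the spleen. All mice were older than 7 weeks and carried an E.G7-OVA tumour, grown for 15 days from 10000 cells marked with luciferase and placed in the anterior chamber. These tumour cells are a murine T lymphoma engineered to express ovalbumin. Mice of both sexes were used, and which sex each array came from is not stated in the labels. The labels call the arrays separate samples without numbering the animals, so the spread between arrays may be biological or technical.

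MHC class II molecules are pairs of an alpha and a beta chain that carry peptides from engulfed proteins to the surface of antigen-presenting cells, where CD4 T cells read them. The invariant chain (Cd74) blocks the peptide groove until proteases, with cathepsin S (Ctss) at the last step, cut it down to a fragment. H2-DM then exchanges that fragment for a peptide, and H2-O restrains H2-DM. The transactivator Ciita switches on the genes of the class II chains, the invariant chain and H2-DM. It does so constitutively in dendritic cells and B cells and under interferon gamma in macrophages and many other cells.

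Promoters of class II genes are known for a conserved X box and Y box. Windows of 6 member genes were scanned for motifs, and those of 4 are shown. The 4 shown each hold a match, so they do not stand for all members, and H2-DMa and H2-DMb1 are not printed. Whether a motif goes with a higher signal was not tested. The windows are RefSeq sequences of build GRCm38.p6 that end at the base before the transcription start and hold 120 bases, 5′ to 3′ on the strand of the gene. Capitals mark matches on either strand to CTGATTGG, the Y box with its inverted CCAAT core (ATTGG), to that core elsewhere, to GNAACNNNTGA, a form of the X box, or to GAAANNGAAA, an interferon-type element. The X box form was written down after these sequences had been read. Windows came from chr17:34287824-34287943 (minus strand) for H2-Aa, chr17:34305747-34305866 (plus) for H2-Eb1, chr17:34092259-34092378 (plus) for H2-Oa and chr3:95526666-95526785 (plus) for Ctss.

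H2-Aa: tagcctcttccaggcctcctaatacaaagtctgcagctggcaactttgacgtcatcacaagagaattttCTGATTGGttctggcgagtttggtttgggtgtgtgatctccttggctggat

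H2-Eb1: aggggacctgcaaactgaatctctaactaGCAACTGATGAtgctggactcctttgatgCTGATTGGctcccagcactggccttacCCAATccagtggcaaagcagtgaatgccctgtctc

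H2-Oa: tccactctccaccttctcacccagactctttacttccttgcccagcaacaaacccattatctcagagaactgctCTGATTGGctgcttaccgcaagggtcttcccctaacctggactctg

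Ctss: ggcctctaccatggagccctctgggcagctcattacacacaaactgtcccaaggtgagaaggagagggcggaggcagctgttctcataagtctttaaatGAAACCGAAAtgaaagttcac

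The Y box letters began 51, 62 and 46 bases before the start in H2-Aa, H2-Eb1 and H2-Oa. Of 32851 windows in the RefSeq table, each reaching from 250 bases before the start to 50 after it, 4.10% held CTGATTGG, and 37.4% held its core ATTGG. The X box form lay 91 bases before the start of H2-Eb1 and 94 before that of H2-DMb1, and 3.17% of all windows held it. The interferon-type letters stood 21 bases before the start of Ctss, against 3.44% of all windows with a match. No match to CTGATTGG was found in the windows of H2-DMb1 and Ctss, and none to GNAACNNNTGA in those of H2-Aa, H2-Oa and Ctss. As GNAACNNNTGA has a fixed spacing and was written after reading the sequences, a window without it may hold another form of the X box. GAAANNGAAA was absent from the windows of H2-Aa, H2-Eb1, H2-Oa and H2-DMb1. Neither of the 2 windows of H2-DMa held any of these 3 motifs. Outside CTGATTGG, the core ATTGG lay 61 bases before the start of H2-DMb1 and 198 before that of a window of H2-DMa. On the other strand it lay 35 bases before the start of H2-Eb1. A match is a run of letters only, and binding was not measured. H2-Ab1 and Ciita had no window. Cd74 was left out of the scan, so its motifs are not given. In the RefSeq gene order on chromosome 17 the members run H2-Oa, H2-DMa, H2-DMb1, H2-Ab1, H2-Aa and H2-Eb1, and Psmb9, Tap1, Psmb8 and Tap2 of the class I pathway lie between H2-DMb1 and H2-Ab1.

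The arrays had detection calls of Present for 53.2% to 58.6% of probe sets. Their log2 signals correlated with Pearson's r of 0.945 to 0.978 across detected probe sets, which are not independent replicates. The intact pair differed more than the splenectomized pair, with a median gap between arrays of 0.21 in the splenectomized and 0.33 in the intact pair on the log2 scale. All 6 eye markers with a probe set were Present on all 4 arrays, and they set the intact arrays apart: the mean log2 signal of 6 detected eye genes, relative to each gene's mean, was 0.48 and 0.02 on the splenectomized arrays and -1.25 and 0.75 on the intact arrays. The T cell list of 6 detected genes was at -0.08 and 0.04 on the splenectomized arrays and at 0.34 and -0.30 on the intact arrays.

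Transcripts of class II presentation had higher signals in splenectomized mice. All 15 detected probe sets were higher there, at a median log2 difference of 1.15 (2.22-fold), against a median of 0.03 over all 26285 detected probe sets. Detection here means a Present call on 2 or more of the 4 arrays. The groups were apart, with each splenectomized array above each intact array, for 15 of 15, where the same held for 20.0% of all detected probe sets. At an unadjusted p under 0.05 in limma 13 of 15 were higher and 0 lower, where 5.49% of all detected probe sets were higher. With p-values adjusted over all detected probe sets 0 of 15 passed 0.05, and 0% of all detected probe sets did (smallest adjusted p of a member 0.157, of any probe set 0.134). That count rested on which array was in the fit. Without intact replicate 1 the fit called 10 of the 15 and 1.25% of all detected probe sets, and without intact replicate 2 it called 12 of the 15 and 13.6% of all. Without either splenectomized array it called 0 of the 15 and 0% of all. Each such fit takes its spread from the remaining pair alone. One of the 15, a probe set of H2-DMa, was Present on the splenectomized arrays alone. Of the 14 that were Present on all 4 arrays, 14 had the groups apart, 12 had an unadjusted p under 0.05, and the median log2 difference was 1.14.

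The members stayed close within each group. Their median gap between replicate arrays was 0.16 in the splenectomized and 0.11 in the intact pair on the log2 scale. The mean log2 signal of the 8 genes, each at its brightest probe set and relative to the gene's mean, was 0.41 and 0.51 on the splenectomized arrays and -0.47 and -0.46 on the intact arrays. The intact arrays had nearly the same class II level, while their eye markers lay far apart. Whether the share of eye tissue bears on the class II difference was not tested. These are bulk samples, so fewer cells of a type and less RNA per cell cannot be told apart.

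**Figure D1:**
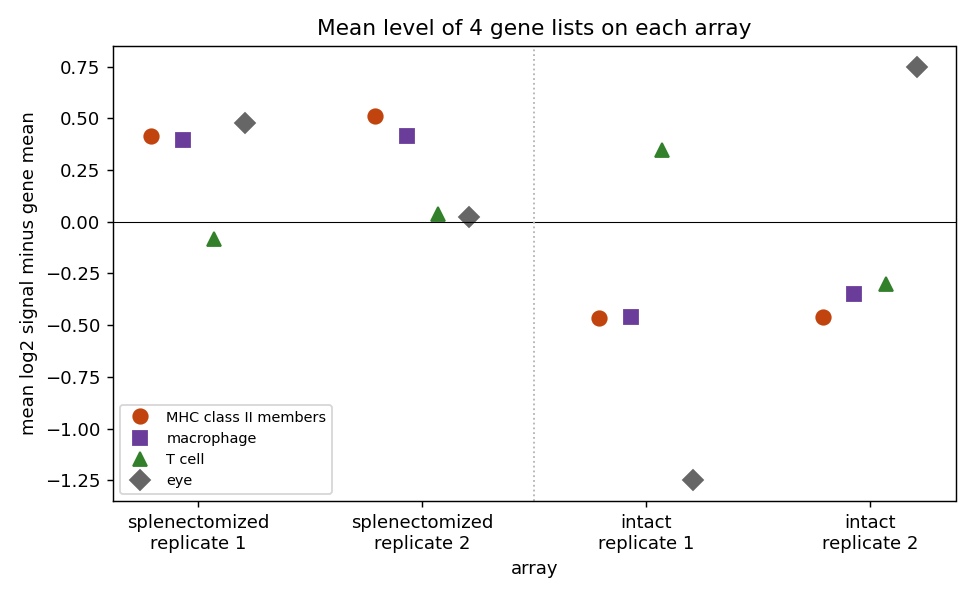
Mean level of 4 gene lists on each array, averaged over genes after subtracting each gene's mean log2 signal (y axis), with the arrays on the x axis. Class II and macrophage genes are above 0 on both splenectomized arrays and below 0 on both intact arrays, while eye genes run from -1.25 on intact replicate 1 to 0.75 on intact replicate 2.

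The classical class II molecule of C57BL/6 mice is I-A, made of the alpha chain H2-Aa and the beta chain H2-Ab1. H2-Aa was measured by 4 probe sets, all Present on all 4 arrays. The brightest by mean log2 signal, 1435290_x_at, read 5625 and 5527 in splenectomized mice, against 3195 and 3101 in intact mice. This was the smallest of the 4 differences, at 1.77-fold (95% interval 1.41 to 2.23, adjusted p = 0.209).

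The next H2-Aa probe set, 1438858_x_at, read 5863 and 6293 in splenectomized mice, against 3016 and 2480 in intact mice, 2.22-fold higher. Probe set 1452431_s_at had 2174 and 2490 in splenectomized mice, against 996 and 1019 in intact mice, 2.31-fold higher. The dimmest, 1443783_x_at, was at 661 and 504 in splenectomized mice, against 179 and 228 in intact mice, 2.86-fold higher (adjusted p = 0.176). The 4 thus gave the same direction with no overlap of the groups and sizes from 1.77-fold to 2.86-fold. The suffixes _x_at and _s_at are the maker's marks for probe sets that can bind related transcripts.

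H2-Ab1 was measured by 3 probe sets, each Present on all 4 arrays. At 1450648_s_at, the brightest, the signals were 2674 and 2988 in splenectomized mice, against 1302 and 1188 in intact mice, 2.27-fold higher (95% interval 1.77 to 2.91, adjusted p = 0.171). Probe set 1451721_a_at had 2212 and 2649 in splenectomized mice, against 790 and 854 in intact mice, 2.95-fold higher. Probe set 1425477_x_at had 1054 and 1280 in splenectomized mice, against 390 and 388 in intact mice, 2.99-fold higher (both adjusted p = 0.157, the smallest among the members). These last probe sets are annotated to the same source sequence, so their likeness is not independent. Both intact arrays sat far below both splenectomized arrays at every H2-Ab1 probe set.

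The other class II molecule, I-E, pairs H2-Eb1 with H2-Ea, and C57BL/6 is known as a strain that does not make the alpha chain. H2-Eb1 had 2833 and 3244 in splenectomized mice, against 1400 and 1360 in intact mice, 2.20-fold higher (95% interval 1.72 to 2.81, adjusted p = 0.173). The groups did not overlap, and the intact arrays lay close together. All 3 probe sets of H2-Ea were called Absent on all 4 arrays, with signals of 0.5 to 14.0 in splenectomized and 3.1 to 12.4 in intact mice. The beta chain transcript was thus measured on arrays where its partner was not detected.

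**Figure D2:**
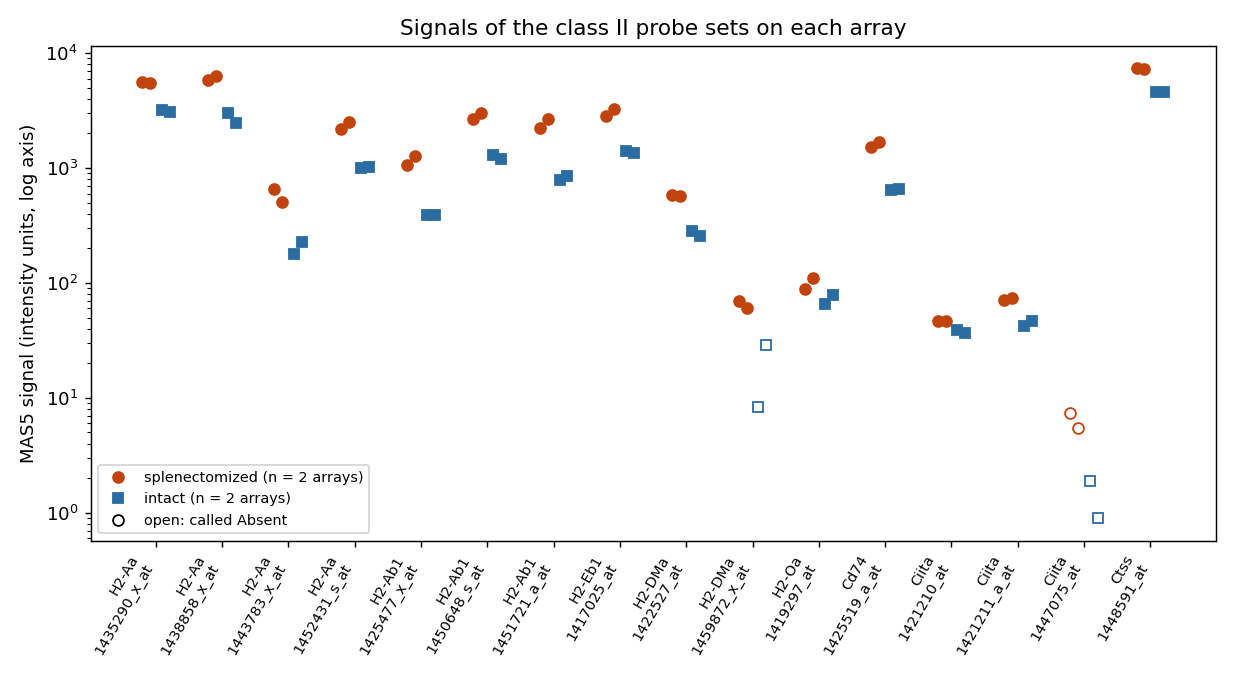
MAS5 signal (y axis, log scale) of each of the 16 class II probe sets (x axis) on the 2 splenectomized and 2 intact arrays, with open symbols where the array was called Absent. At each of the 15 detected probe sets both splenectomized points lie above both intact points, and the third Ciita probe set has open symbols throughout.

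Cd74, the invariant chain, had 1522 and 1674 in splenectomized mice, against 637 and 656 in intact mice. The fold of 2.47 had a 95% interval of 1.95 to 3.12 and an adjusted p of 0.166. Of all detected probe sets, 1.44% had a difference as high or higher. That interval overlapped those of the chains it chaperones, H2-Ab1 and H2-Eb1, at their brightest probe sets. Whether these genes differ from each other in fold was not tested.

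Ctss, the cysteine protease that makes the last cut of the invariant chain, had 7352 and 7199 in splenectomized mice, against 4569 and 4614 in intact mice. Replicates differed little, and the fold was 1.58 (95% interval 1.25 to 2.01, adjusted p = 0.301). That interval ran partly below the one of Cd74.

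The peptide exchange factor H2-DM was also higher. H2-DMa, its alpha chain, had 581 and 576 in splenectomized mice, against 282 and 255 in intact mice at 1422527_at, 2.16-fold higher (95% interval 1.67 to 2.78, adjusted p = 0.173). Its second probe set, 1459872_x_at, was Present on both splenectomized arrays, with 69.4 and 60.6, and Absent on both intact arrays, with 8.3 and 28.7. Those intact signals were not above background, and taken as they stand they gave a fitted difference of 4.20-fold (95% interval 1.45 to 12.1, adjusted p = 0.510). On the log2 scale this was 2.07, and it was 1.18 without intact replicate 1 and 2.97 without intact replicate 2. This probe set met the detection filter through the splenectomized arrays alone.

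The beta chain of H2-DM is encoded by the neighbouring H2-DMb1 and H2-DMb2, which the array separates only in part. Of the probe sets annotated to both genes, 1418638_at had 279 and 297 in splenectomized mice, against 114 and 105 in intact mice. The other, 1449580_s_at, had 285 and 335 in splenectomized mice, against 118 and 131 in intact mice. They were 2.63-fold and 2.49-fold higher, with adjusted p of 0.171 and 0.173. How H2-DMb1 and H2-DMb2 divide that signal was not tested.

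H2-Oa, the alpha chain of the H2-DM inhibitor H2-O, had 88.6 and 111 in splenectomized mice, against 65.4 and 78.0 in intact mice. The groups were apart, but by 0.18 on the log2 scale, less than the gap within either pair (0.33 splenectomized, 0.25 intact). Its fold of 1.39 had a 95% interval of 0.920 to 2.10 (adjusted p = 0.677), so it did not differ beyond the spread between replicates. This alpha chain had the smallest difference of the 8 genes at their brightest probe sets, and 17.2% of all detected probe sets had a difference as high or higher. The beta chain of H2-O, H2-Ob, is not a member and had low signals. It read 13.1 and 19.1 in splenectomized mice, against 6.9 (called Absent) and 11.9 in intact mice, 1.75-fold higher (limma, adjusted p = 0.716).

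Ciita, the transactivator, had low signals. At 1421211_a_at its signals were 71.5 and 74.0 in splenectomized mice, against 42.6 and 46.4 in intact mice, 1.64-fold higher (95% interval 1.09 to 2.46, adjusted p = 0.558). At 1421210_at they were 46.5 and 46.2 in splenectomized mice, against 39.3 and 36.8 in intact mice, 1.22-fold higher (95% interval 0.775 to 1.92, adjusted p = 0.775).

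Those probe sets were Present on all 4 arrays and gave no overlap of the groups, with differences of unlike size. The third Ciita probe set, 1447075_at, was Absent on all 4 arrays, at 7.4 and 5.5 in splenectomized and 1.9 and 0.9 in intact mice, and was not tested.

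**Figure D3:**
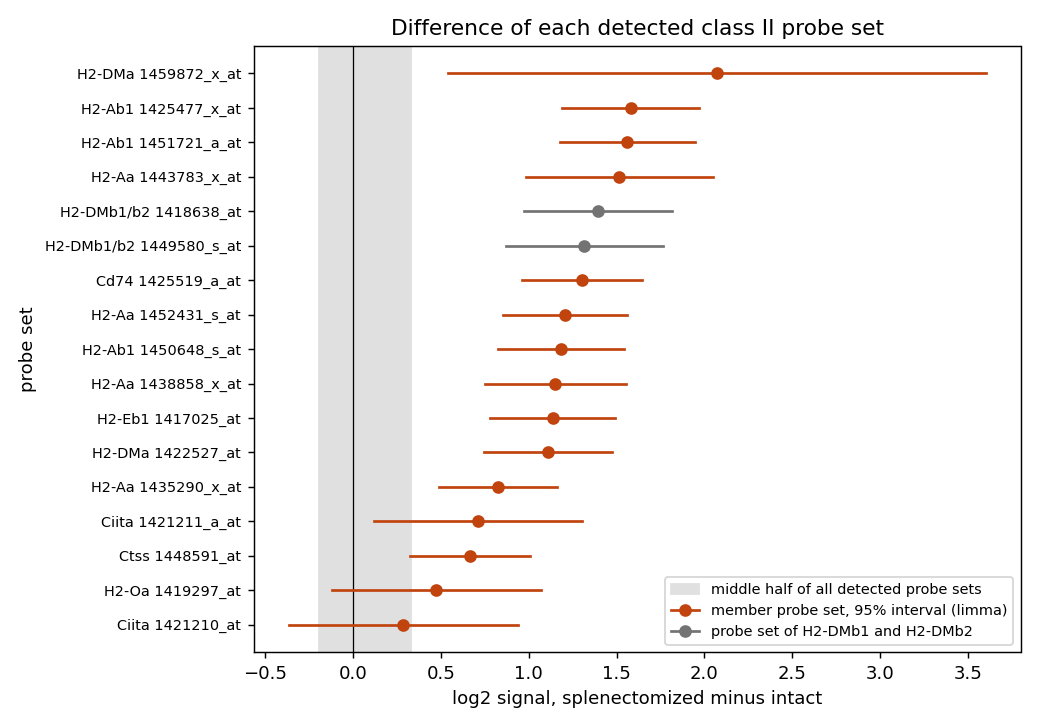
Log2 difference of splenectomized minus intact (x axis) for the 15 detected member probe sets and the 2 of H2-DMb1 and H2-DMb2 together (y axis), with 95% intervals from limma and, shaded, the middle range between the quartiles of all detected probe sets, -0.19 to 0.33. All points lie above 0, and the intervals of H2-Oa and of Ciita at 1421210_at include 0.

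Across the members a log2 difference of 1 or more was reached by 10 of 15 probe sets, and by 3.05% of all detected probe sets. Of the 14 probe sets Present on all 4 arrays 9 reached it. At the brightest probe set of each gene, 4 of 8 genes reached it: H2-Ab1, H2-Eb1, H2-DMa and Cd74. H2-Aa reached it at its other 3 probe sets. Ctss, Ciita and H2-Oa did not reach it at any probe set tested.

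Genes with the most similar profile were sought for Cd74 and H2-Ab1, as the smallest distance between log2 signals relative to the gene mean over 4 arrays. Such a profile holds little beyond the group difference and the gaps within pairs. For Cd74 these were Fam78a, Bdkrb1, Egr3, Aldh1a2 and H2-Ab1, at distances of 0.12 to 0.17. For H2-Ab1 they were Egr3, H2-Eb1, Lsp1, Batf2 and Bdkrb1, at 0.06 to 0.13. Class II partners thus stood among the nearest of 13148 detected genes, beside genes of other functions.

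Other genes of the class II pathway mostly had higher signals in splenectomized mice as well. Of 15 genes listed, 14 were detected, with 13 higher and 1 lower, and a median log2 difference of 0.61 at the brightest probe set, against 0.05 over all detected genes. At an unadjusted p under 0.05, 7 were higher and 0 lower, where 7.07% of all detected genes were higher and 2.41% lower. The groups were apart and higher for 11 of 14, against 21.7% of all detected genes. None of the 14 passed when p-values were adjusted over all probe sets in limma (smallest adjusted p = 0.285). Their mean log2 signal, relative to each gene's mean, was 0.32 and 0.22 on the splenectomized arrays. On intact replicates 1 and 2 it was -0.53 and -0.01, so the intact arrays lay apart. The eye list had a similar median log2 difference of 0.60, with 5 of 6 detected genes higher.

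The 7 pathway genes with an unadjusted p under 0.05 were H2-DMb2, Ifi30, Lgmn, Ctsb, Ctsd, Ctsh and Sppl2a. Ctsh, an aminopeptidase of the endosome, had 1840 and 1665 in splenectomized mice, against 913 and 1107 in intact mice, 1.74-fold higher (adjusted p = 0.285). Ifi30, the thiol reductase that opens disulfide bonds of antigens, had 1726 and 1850 in splenectomized mice, against 1229 and 1105 in intact mice, 1.53-fold higher. Lgmn, asparagine endopeptidase, had 958 and 854 in splenectomized mice, against 436 and 705 in intact mice, where the intact arrays lay far apart.

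Ctsb and Ctsd, lysosomal proteases, were 1.51-fold and 1.58-fold higher in splenectomized mice. Sppl2a, which clears the membrane stub of the invariant chain, had 708 and 656 in splenectomized mice, against 451 and 529 in intact mice. H2-DMb2 had 117 and 95.7 in splenectomized mice, against 65.3 and 70.2 in intact mice, 1.56-fold higher. Beside these, Ctsl, a lysosomal protease like Ctss, was chosen after its values were seen. It had 5214 and 5656 in splenectomized mice, against 4711 and 4945 in intact mice, 1.13-fold higher (adjusted p = 0.761). The lower gene was H2-Eb2, also chosen afterwards, with 38.4 and 41.7 in splenectomized mice, against 50.3 and 46.2 in intact mice.

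Genes of the factors that bind class II promoters lay on either side of 0, most of them below. Of 7 detected genes of this complex (the RFX subunits, the NF-Y subunits and Creb1) 2 were higher and 5 lower, with a median log2 difference of -0.22. The groups were apart for each of the 7, with 2 higher and 5 lower in splenectomized mice. Of all detected genes 21.7% were apart and higher, and the share apart and lower was not counted. Of the 7, 0 had an unadjusted p under 0.05 (limma, smallest adjusted p = 0.633). Of all detected genes, 7.07% were higher and 2.41% lower at that p. Rfx5, the DNA-binding RFX subunit, had 168 and 204 in splenectomized mice, against 142 and 128 in intact mice. Nfyb, an NF-Y subunit, had 211 and 264 in splenectomized mice, against 339 and 278 in intact mice.

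On the route from interferon gamma to Ciita, 7 of 8 genes were detected and all 7 were higher, with a median log2 difference of 0.24, against 0.05 over all detected genes. The groups were apart for 4 of the 7, against 21.7% of all detected genes, and overlapped for Jak1, Socs1 and Ifngr1, which had folds of 1.03, 1.05 and 1.09. At an unadjusted p under 0.05, 2 of the 7 were higher, against 7.07% of all detected genes. Ifng, the cytokine, had 381 and 415 in splenectomized mice, against 150 and 116 in intact mice, 3.01-fold higher (adjusted p = 0.171). Irf1, a factor that interferon gamma induces and that acts on Ciita, had 1728 and 1643 in splenectomized mice, against 1064 and 968 in intact mice, 1.66-fold higher (adjusted p = 0.252). The receptor gene Ifngr1 was at 1122 and 1148 in splenectomized and 1136 and 962 in intact mice.

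Class II is read on T cells by the coreceptor Cd4 and the inhibitory receptor Lag3. Cd4 was Absent on all 4 arrays at both probe sets, with signals up to 4.7 in splenectomized and up to 5.4 in intact mice. Lag3 was also Absent on all 4 arrays, at 26.9 and 31.7 in splenectomized and 2.7 and 10.0 in intact mice.

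Class I presentation, which displays peptides made inside the cell to CD8 T cells, had smaller differences at the median. All 11 listed genes were detected, 10 higher and 1 lower, with a median log2 difference of 0.24, against 0.97 for the 8 class II genes. Both medians take the brightest probe set of each gene, which gave 1.26-fold for H2-K1 and 1.18-fold for H2-D1. Over all their detected probe sets the folds ran from 1.17 to 1.86 for H2-K1 and from 1.18 to 1.88 for H2-D1. At an unadjusted p under 0.05, 3 of the 11 genes were higher at their brightest probe set, against 7.07% of all detected genes. They were the peptide transporter gene Tap1 (1.83-fold), the loading factor gene Tapbp (1.56-fold) and the class I transactivator gene Nlrc5 (1.85-fold). Nlrc5 had 510 and 451 in splenectomized mice, against 258 and 259 in intact mice (adjusted p = 0.220). The class II mean minus the class I mean, each relative to gene means, was 0.24 and 0.32 on the splenectomized arrays and -0.38 and -0.18 on the intact arrays. That difference between lists was not tested.

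Class II genes are expressed by several cell types, and most detected markers of macrophages, dendritic cells and B cells also had higher signals on the splenectomized arrays. All 11 macrophage markers were detected and higher, with a median log2 difference of 0.87. At an unadjusted p under 0.05, 9 of the 11 were higher, against 7.07% of all detected genes. Those 9 were Mpeg1, Cd68, Adgre1, Csf1r, Fcgr1, Mertk and the complement genes C1qa, C1qb and C1qc, at folds of up to 2.14 (C1qb). C1qb, a chain of complement C1q, had 1992 and 2204 in splenectomized mice, against 932.5 and 1032 in intact mice (adjusted p = 0.173). Csf1r, the receptor for the macrophage growth factor, had 3159 and 3284 in splenectomized mice, against 1844 and 1847 in intact mice, 1.75-fold higher (adjusted p = 0.209). The summed signal of the list was 19476 and 20720 in splenectomized mice, against 12400 and 11348 in intact mice. The class II mean minus the macrophage mean was 0.02 and 0.10 on the splenectomized arrays and -0.01 and -0.11 on the intact arrays. The groups were apart by a mean of 0.12 in this difference, which was not tested. The part of macrophages in the class II signals was not tested.

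Dendritic cell markers had a summed signal of 2224 and 2119 in splenectomized mice, against 1478 and 1318 in intact mice. Fscn1 alone made up 78.4% to 82.8% of that sum on each array, and the other 6 genes summed to 383 and 379 in splenectomized mice, against 286 and 285 in intact mice. Of 10 listed, 7 were detected, 6 higher and 1 lower, with a median log2 difference of 0.40. Of the 7, 2 were higher at an unadjusted p under 0.05, against 7.07% of all detected genes. Siglech, which was Present on the splenectomized arrays alone, is among the 6, and without it 5 of 6 were higher, with a median of 0.38. The 2 with that p were Ccr7, the homing receptor of migrating dendritic cells, and Fscn1, an actin-bundling protein, at 1.83-fold and 1.61-fold. The defining markers Xcr1 and Zbtb46 were not detected, and Cd209a had 60.7 and 52.3 in splenectomized mice, against 53.2 and 61.0 in intact mice.

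B cell markers had low signals. Of 8 listed, 4 were detected and all 4 were higher, with a median log2 difference of 0.81. Their summed signal was 236.5 and 191 in splenectomized mice, against 97.4 and 159 in intact mice. Cd22 alone made up 55.4% to 68.1% of that sum on each array. It overlapped between the groups, with 136 and 106 in splenectomized mice, against 55.3 and 108 in intact mice. The other 3 genes summed to 100 and 85.4 in splenectomized mice, against 42.1 and 50.6 in intact mice. At an unadjusted p under 0.05, 1 of the 4 was higher, against 7.07% of all detected genes. Ms4a1, which encodes CD20 and was the one with that p, had 22.2 and 23.0 in splenectomized mice, against 7.6 and 5.8 in intact mice. Cd79a, a chain of the B cell receptor, and Pax5, a B cell transcription factor, were not detected. The class II mean minus the B cell mean was -0.24 and 0.17 on the splenectomized arrays and 0.17 and -0.09 on the intact arrays, a mean difference of -0.08 between groups that overlapped. For dendritic cell markers the same subtraction gave 0.19 and 0.31 on the splenectomized arrays and -0.27 and -0.23 on the intact arrays. The parts of dendritic cells and B cells in the class II signals were not tested.

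**Figure D4:**
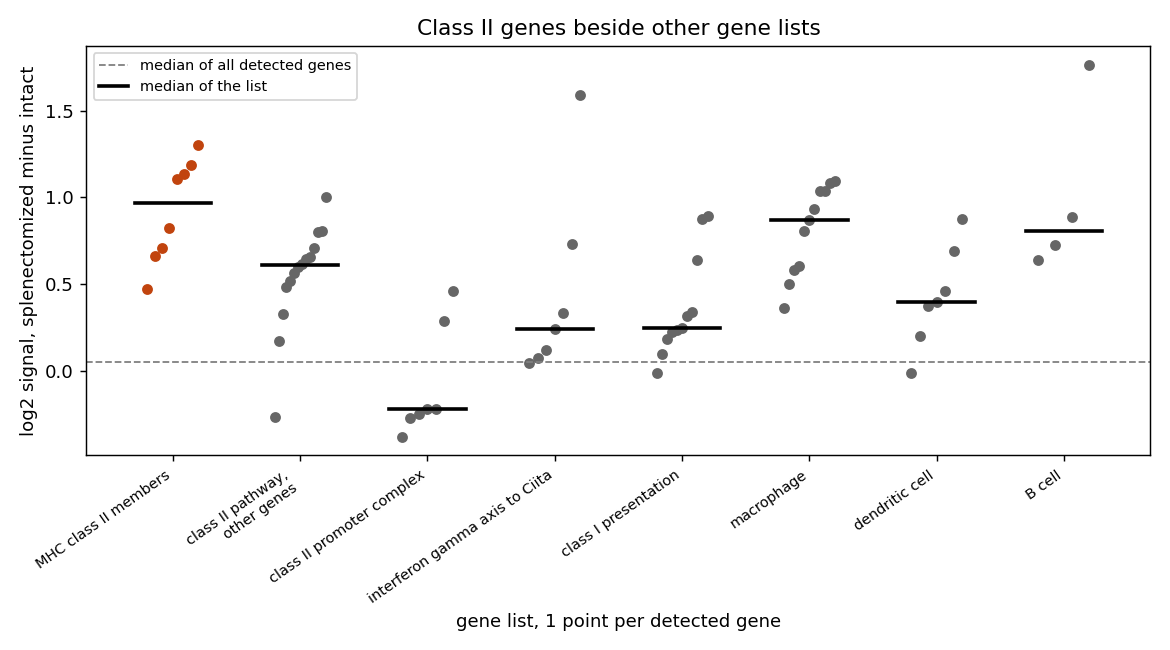
Log2 difference of splenectomized minus intact (y axis) for each detected gene at its brightest probe set, by gene list (x axis), with bars for list medians and a dashed line for the median of all detected genes. The class II members have a median of 0.97, the macrophage list of 0.87 and the B cell list of 0.81, while dendritic cell markers are at 0.40, class I presentation is at 0.24 and the promoter complex at -0.22.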

How the data were processed

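Total RNA of tumour-bearing eyes was measured on 4 Affymetrix arrays, 2 per group. The deposited values are signal intensities, which the authors made with GCOS 1.4 and MAS5, per the submitters' processing notes. The target of the authors' scaling is not stated in those notes, and each array has a trimmed mean close to 150. Detection calls, Present or Absent, came from the authors' deposited call file. Names came from the platform's annotation table: 34945 had 1 symbol, 932 several and 9160 none, and 64 were controls, which were left out. All 16 member probe sets had an Entrez identifier that gave the same symbol in RefSeq.

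Signals were raised to at least 0.1 and taken to log2. Splenectomized was compared with intact by limma 3.58.1 under R 4.3.3 (lmFit, eBayes with an intensity trend, two-sided, no covariate) over all 26285 non-control probe sets Present on at least 2 of the 4 arrays. P-values were adjusted by Benjamini-Hochberg over all of these. Counts per gene took from the same fit the detected probe set that was brightest on average (log2). The number of arrays limits the precision, and an exact permutation of 4 arrays cannot go below p = 0.333. Errors of folds are 95% intervals from limma.

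The members and lists were chosen with earlier results of these data known. Genes of the pathway, macrophage, dendritic cell and B cell lists were named where their unadjusted p was under 0.05, otherwise the 2 of smallest p, and H2-Ea always. Ctsl, H2-Eb2, H2-Ob, Ifngr1, Jak1, Socs1, Siglech, Cd209a, Cd22, Cd4, Lag3 and the undetected markers were named after their values were seen. Listed symbols with no probe set of their own are not analysed here. Figures used matplotlib 3.10.9.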

Additional observations from a re-analysis of the deposited data

How the results depend on the processing

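Of the alternatives, 7 can move a log2 difference: each array centred on its median, quantile normalization, the pseudocount and leaving out each of the 4 arrays. Under these, 105 of 105 values of the 15 detected member probe sets were above 0, from 0.14 to 2.97 on the log2 scale. The other alternatives change the tests and not the differences. All those tried were centring each array on its median, quantile normalization, a pseudocount of 16, no detection filter, Present on all 4 arrays, no intensity trend, a replicate block, 1 probe set per gene, no _x_at or _s_at probe sets, leaving out each array, and a crossed pairing of the replicate numbers. The median log2 difference of the members, 1.15 as reported, was 1.06 with each array centred on its median, 0.97 with 1 probe set per gene and 0.91 without _x_at and _s_at probe sets. Leaving out each array gave medians of 1.10 to 1.23. Centring moved the median of all probe sets to -0.06, against 0.03 as deposited. The members at an unadjusted p under 0.05 numbered 13, and 7 of 8 with 1 probe set per gene and 6 of 8 without _x_at and _s_at probe sets, where fewer were tested. Leaving out each array gave 10 to 14 of 15.

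At an adjusted p under 0.05 the members called numbered 0 as reported and under every alternative except leaving out an intact array and the crossed pairing. Leaving out each array gave 0 to 12, with 10 without intact replicate 1 and 12 without intact replicate 2. Over all probe sets the same fits called 329 and 3574, and 0 without either splenectomized array. Each such fit leaves 1 array in a group, which is assumed to vary like the other pair, with 1 residual degree of freedom. The labels do not say that equal replicate numbers share a litter, batch or day. With the replicate block 12 members had an unadjusted p under 0.05 and 0 an adjusted one. Differences within pairs of equal number correlated at -0.33 across probe sets, so the crossed pairing was tried after seeing the data, and it called 11 members and 358 probe sets. Quantile normalization called 1 probe set, not a member.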
